A study of Mus musculus with 8 samples.

Results

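Genes of fibroblast growth factor (FGF) signaling were examined in whole prostate from mice with and without *Olfm4*. The module comprised the probe sets that carry a single gene symbol and belong to an FGF ligand, an FGF receptor, the co-receptor gene *Klb*, the carrier gene *Fgfbp1* or 1 of 8 genes that dampen or report FGF signaling, namely *Spry1*, *Spry2*, *Spry4*, *Spred1*, *Spred2*, *Dusp6*, *Etv4* and *Etv5*. This gave 83 probe sets of 45037 on the array, and 36 genes of 18193 with a probe set of their own. A probe set is the group of short probes that together measure 1 transcript or part of it. All mice were 3 months old and shared a mixed background of National Institutes of Health Black Swiss and 129/SV, each at 50%. The knockout group had 4 mice lacking *Olfm4* in all tissues (*Olfm4*-/-), and the wild-type group had 4 mice with both alleles intact (*Olfm4*+/+), with 1 array per mouse. Both genotypes descend from crosses of heterozygous animals, and no other allele or agent is named in the labels. Of each genotype, 2 arrays were run on one day and 2 on another.

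Most FGF ligands are secreted proteins that bind heparan sulfate and activate receptor tyrosine kinases on neighbouring cells. In the prostate, ligands such as FGF7 and FGF10 are known as products of the stroma that act on the FGFR2 receptor of the epithelium, and this exchange is needed for prostatic budding and branching. Active receptors signal through RAS and the kinase ERK, which induces the ETS transcription factor genes *Etv4* and *Etv5* together with the inhibitors of the Sprouty and Spred families and the ERK phosphatase DUSP6, so that these genes are commonly read as a gauge of pathway output.

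The *Olfm4* transcript had log2 values of 3.09, 3.00, 3.25 and 3.09 on knockout arrays 1 to 4 and of 10.32, 10.23, 10.74 and 10.65 on wild-type arrays 1 to 4, which fits the labels. Array medians were 6.079, 6.028, 6.050 and 6.047 on knockout arrays 1 to 4 and 6.087, 6.076, 6.088 and 6.069 on wild-type arrays 1 to 4. Most knockout medians were thus slightly lower. Of 8 luminal epithelial markers, 7 were measured, and their mean log2 value was between 13.40 and 13.49 on every array, so the defining markers of prostate epithelium were present throughout. Knockout array 1 and wild-type array 1 stood apart. The mean log2 value of the 6 measured of 7 seminal vesicle markers was 13.81 and 14.15 on these arrays and between 7.88 and 10.04 on the other 6. Counts are therefore also given without these 2 arrays. On knockout array 1, the means of the fibroblast markers (10.57), the smooth muscle markers (12.93) and the endothelial markers (7.99) were also the highest of the 8 arrays. Basal epithelial markers had higher means in knockout prostate for 8 of 8 genes, with array means of 10.17 to 10.54 in knockout and 9.98 to 10.19 in wild-type prostate, and fibroblast markers for 8 of 8 genes, with array means of 10.15 to 10.57 and 9.92 to 10.19.

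Most of the FGF module was measured above the level of transcripts that prostate is not known to make. Olfactory receptor probe sets served as that reference, and 95% of the 43 of them had a mean log2 value under 4.56. At its brightest probe set, 31 of the 36 genes (86.1%) lay above this level, against 83.4% of all genes. The other members were *Fgf2*, *Fgf14*, *Fgf15*, *Fgf16* and *Klb*, for which a difference between genotypes could not be read with confidence. *Fgf5*, *Fgf6*, *Fgf8*, *Fgf12*, *Fgf21*, *Fgf23* and *Etv4* lay little above the reference level, with mean log2 values of 4.70 to 5.14. A small difference says little for them too. Counted by probe set, 61 of 83 (73.5%) lay above the level, and the share over all probe sets was not computed. The count by gene takes the brightest probe set, which favours genes with several. Probe sets bind with different strength, so levels were not compared between genes. Detection calls were not used.

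No member of the FGF module passed the test between genotypes. In limma, fitted with genotype and array day and adjusted by Benjamini-Hochberg across the array, 0 of 83 probe sets had an adjusted p under 0.05, where 0.111% of all probe sets did. At an unadjusted p under 0.05 there were 4 (4.82%), against 12.8% of all probe sets, with 3 higher in knockout prostate (5.46% of all) and 1 lower (7.34% of all). Analysis of variance, which the methods name without its factors, was run with genotype alone and also gave 0 and 4, against 12.5% of all at the unadjusted threshold. Both arms were separated, with every knockout array above or below every wild-type array, for 2 of the 83 probe sets (2.41%), against 8.72% of all probe sets, and for 0 of the 36 genes at their brightest probe set (10.8% of all genes). Each of these shares was below that of the array as a whole. After each array was centred on its median, 9 member probe sets had an unadjusted p under 0.05, against 12.3% of all probe sets. Of these, 8 were higher (9.64%, against 7.05% of all probe sets) and 1 was lower, so the share of higher members was then above that of the array. Without knockout array 1 and wild-type array 1, the number was 7, 5 higher and 2 lower, against 13.3% of all. Without knockout array 1 alone (13.2% of all) and without knockout array 3 alone (12.2% of all) it was 8. Whole tissue was measured, in which fewer cells of a type and less RNA per cell cannot be told apart.

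For most members the difference was small and its interval narrow. The median log2 fold change, knockout minus wild type, was 0.037 over the 36 genes and -0.015 over all genes, and the median size of a change irrespective of sign was 0.070 and 0.11. For comparison, the median spread within a genotype was 0.17 (SD of log2 values, n = 4 per group) for the members and 0.14 for all genes. The 95% confidence interval of 30 of the 36 genes lay wholly within a 1.5-fold change in either direction, as it did for 81.3% of all genes. For 35 of the 36 it lay within a 2-fold change. The exception was *Klb*. *Fgfbp1*, *Spry1*, *Spry4*, *Etv4*, *Etv5* and *Klb* had intervals that reached past 1.5-fold. Genes at or near the reference level are among the 30, and a narrow interval says little for them.

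**Figure D1:**
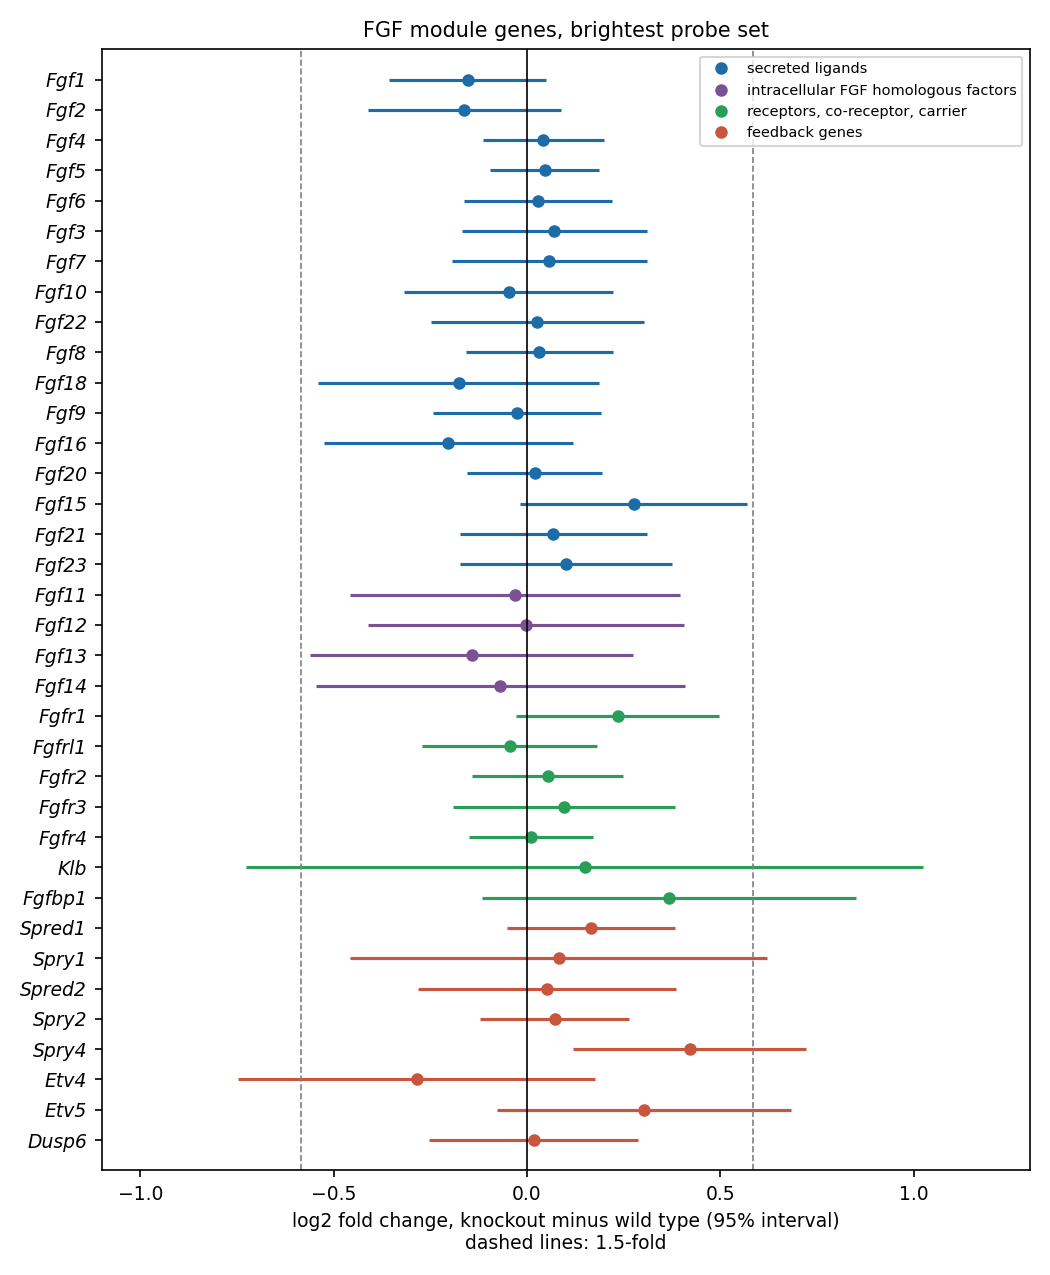
Log2 fold change (x axis, knockout minus wild type) of the 36 genes of the FGF module (y axis), each at its brightest probe set, with points for the limma estimate, lines for the 95% confidence interval and dashed lines at a 1.5-fold change. The interval of *Spry4* is the one that leaves out 0, and that of *Klb*, from -0.73 to 1.02, is the widest.

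Among the secreted ligands, 11 of 17 genes had knockout means above wild type and 6 below, with a median log2 fold change of 0.029 and a range of -0.20 to 0.28. None of their 28 probe sets had an unadjusted p under 0.05, and the smallest p was 0.0626. Without knockout array 1 and wild-type array 1, 6 were higher and 11 lower, with a median of -0.028, so the direction of this group depended on those 2 arrays.

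*Fgf1* encodes acidic FGF, a ligand that can bind all FGF receptors. Its brightest probe set had log2 values of 12.14, 12.16, 12.45 and 12.40 on knockout arrays 1 to 4 and of 12.38, 12.48, 12.50 and 12.41 on wild-type arrays 1 to 4. Knockout arrays 1 and 2, both of array day 2, were the lowest, and arrays 3 and 4 lay within the wild-type range. The log2 fold change was -0.15 (standard error, SE, 0.087, 95% confidence interval -0.36 to 0.049, limma adjusted p = 0.511), with 0.030 on array day 1 and -0.34 on day 2. Other probe sets of *Fgf1* had 0.012 and -0.12. *Fgf2*, which encodes basic FGF, was measured by 1 probe set with log2 values of 2.76, 2.86, 3.02 and 2.86 on the knockout arrays and of 3.02, 2.82, 3.27 and 3.05 on the wild-type arrays. All lay below the reference level, and the groups overlapped. The difference was -0.16 (SE 0.11, 95% confidence interval -0.41 to 0.088, unadjusted p = 0.172, limma adjusted p = 0.579), which says little about its transcript.

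*Fgf7*, the gene of keratinocyte growth factor, had log2 values of 8.15, 7.82, 7.80 and 7.89 on the knockout arrays and of 7.83, 7.91, 7.69 and 8.00 on the wild-type arrays. Knockout array 1 was the highest, and the groups overlapped. The knockout mean was above the wild-type mean by 0.058 on the log2 scale (SE 0.11, 95% confidence interval -0.19 to 0.31, adjusted p = 0.865). The difference was -0.035 without knockout array 1. *Fgf10*, the mesenchymal ligand of prostatic branching, had log2 values of 5.85, 5.42, 5.57 and 5.66 on the knockout arrays and of 5.79, 5.78, 5.63 and 5.49 on the wild-type arrays. The groups lay on top of each other, and differed by -0.048 on the log2 scale (SE 0.12, 95% confidence interval -0.32 to 0.22, adjusted p = 0.900). A difference in *Fgf10* or *Fgf7* beyond 1.5-fold in either direction lay outside these intervals. The remaining members of this subfamily, *Fgf3* and *Fgf22*, had log2 fold changes of 0.070 and 0.027.

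The other paracrine ligands showed as little. *Fgf9*, whose product signals from epithelium to mesenchyme in many organs, had a log2 fold change of -0.027 and *Fgf18* one of -0.18 (adjusted p = 0.682). *Fgf4*, *Fgf5*, *Fgf6*, *Fgf8* and *Fgf20* had log2 fold changes between 0.019 and 0.046, and *Fgf16* had one of -0.20 at a level under the reference. Of the endocrine ligands, which act at a distance through Klotho co-receptors, *Fgf15* had the smallest p among all ligands. Its log2 values were 4.59, 4.51, 4.58 and 4.25 on the knockout arrays and 4.02, 4.04, 4.39 and 4.38 on the wild-type arrays, all close to the reference level. The difference between genotypes was 0.28 (SE 0.13, unadjusted p = 0.0626, adjusted p = 0.421). *Fgf21* and *Fgf23* had 0.068 and 0.10.

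The intracellular FGF homologous factors are not secreted and are known to bind voltage-gated sodium channels. All 4 genes were lower on average in knockout prostate, with log2 fold changes of -0.030 for *Fgf11*, -0.0017 for *Fgf12*, -0.14 for *Fgf13* and -0.069 for *Fgf14*. The count depended on scaling and on arrays, since 2 of the 4 were lower after quantile normalization, 3 after median centring and 2 without knockout array 1 and wild-type array 1. *Fgf13* had log2 values of 8.69, 7.99, 7.76 and 7.93 on the knockout arrays and of 8.36, 8.23, 8.18 and 8.17 on the wild-type arrays. Knockout array 1 was the highest of the 8 and the other knockout arrays were the lowest 3. Markers of nerve, which is known to express this family (5 of 7 measured), had a mean log2 value of 8.98 on knockout array 1, 8.92 on wild-type array 1 and 8.74 on wild-type array 3, against 6.89 to 7.30 on the other arrays. Their part in the *Fgf13* values was not tested.

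**Figure D2:**
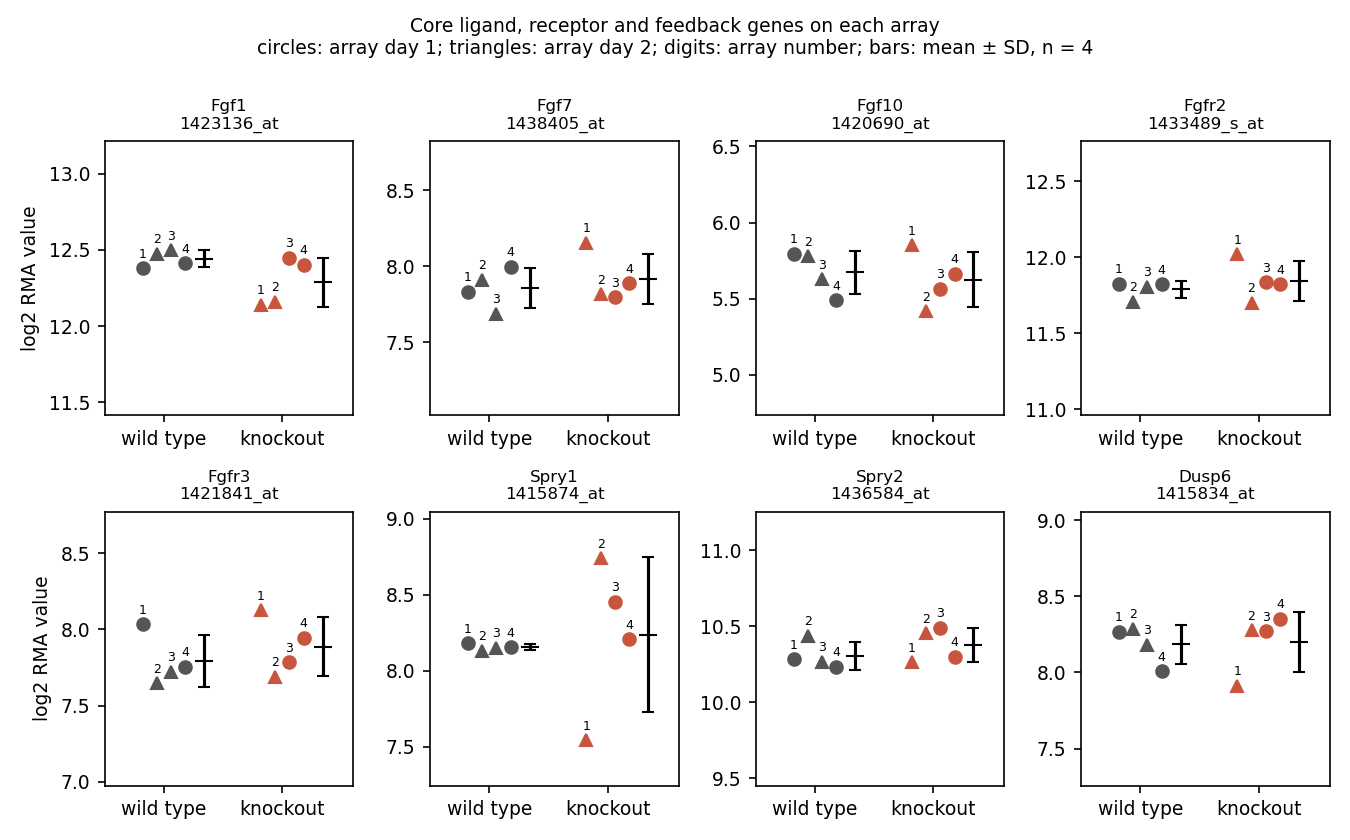
Log2 RMA value (y axis) of 8 ligand, receptor and feedback genes at their brightest probe set on each of 4 wild-type and 4 knockout arrays (x axis), with bars for the mean and SD of a group. The groups overlap for every gene, and for *Spry1* the wild-type arrays lie between 8.13 and 8.18 while the knockout arrays spread from 7.55 to 8.74.

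The genes of the 4 signaling receptors and of the decoy-like receptor FGFRL1 had log2 fold changes between -0.045 and 0.23 at their brightest probe sets, 4 higher and 1 lower. Together with *Klb* and *Fgfbp1*, 6 of 7 genes were higher, and 3 of 7 without knockout array 1. *Fgfr1*, the receptor gene most often linked to stroma, had log2 values of 9.07, 8.78, 8.51 and 8.61 on knockout arrays 1 to 4 and of 8.41, 8.49, 8.51 and 8.63 on wild-type arrays 1 to 4. Knockout arrays 1 and 2 exceeded every wild-type array, and arrays 3 and 4 lay within the wild-type range. On average the knockout arrays were higher by 0.23 on the log2 scale (SE 0.11, 95% confidence interval -0.029 to 0.50, unadjusted p = 0.0734, adjusted p = 0.446). The difference was 0.043 on array day 1 and 0.43 on array day 2, whose own difference was not tested, and it was 0.14 without knockout array 1, on which the fibroblast, smooth muscle and endothelial markers were also the highest. A second probe set of *Fgfr1* gave 0.24 (adjusted p = 0.415), and another gave -0.12 (adjusted p = 0.750). The part of the cell type markers in these values was not tested.

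*Fgfr2*, the gene of the receptor for FGF7 and FGF10 in epithelium, had log2 values of 12.02, 11.70, 11.83 and 11.82 on the knockout arrays and of 11.82, 11.71, 11.81 and 11.82 on the wild-type arrays. Apart from knockout array 1, all arrays lay between 11.70 and 11.83. The means differed by 0.054 on the log2 scale (SE 0.083, 95% confidence interval -0.14 to 0.25, adjusted p = 0.833), and its other probe sets had 0.055 and 0.027. *Fgfr3* had log2 values of 8.13, 7.69, 7.78 and 7.95 on the knockout arrays and of 8.04, 7.65, 7.72 and 7.76 on the wild-type arrays. Within each genotype, array 1 was the highest. For *Fgfr3* the log2 fold change was 0.097 (SE 0.12, adjusted p = 0.790), and that of *Fgfrl1* was -0.045 (adjusted p = 0.885), with -0.11 at its second probe set.

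*Fgfr4* was the receptor gene with a probe set at an unadjusted p under 0.05. That probe set had log2 values of 4.24, 3.65, 4.01 and 3.64 on knockout arrays 1 to 4 and of 4.23, 4.16, 4.41 and 4.86 on wild-type arrays 1 to 4. Knockout arrays 2, 3 and 4 lay below every wild-type array and knockout array 1 did not. This gave a log2 fold change of -0.53 (SE 0.20, 95% confidence interval -0.99 to -0.068, unadjusted p = 0.0298, adjusted p = 0.341), with -0.72 and -0.34 on array days 1 and 2, and an exact permutation test gave p = 0.0857 (2-sided). Its mean of 4.15 lies under the reference level, and the 4 brighter probe sets of *Fgfr4* had log2 fold changes of 0.011, 0.12, -0.040 and -0.013.

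*Klb* and *Fgfbp1* complete the receiving side. *Klb* encodes beta-Klotho, the co-receptor for endocrine FGFs in liver and fat. Its log2 values were 4.95, 3.87, 3.86 and 3.90 on knockout arrays 1 to 4 and 4.91, 3.68, 3.92 and 3.49 on wild-type arrays 1 to 4. Array 1 of each genotype thus lay about 1 log2 unit above the rest, and the log2 fold change of 0.15 between genotypes (SE 0.37, adjusted p = 0.904) was within that spread. On the same 2 arrays, the 4 measured of 6 adipose markers had mean log2 values of 9.45 and 10.40, against 6.27 to 7.84 on the other arrays, beside the seminal vesicle markers given above. Their part in the *Klb* values was not tested.

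**Figure D3:**
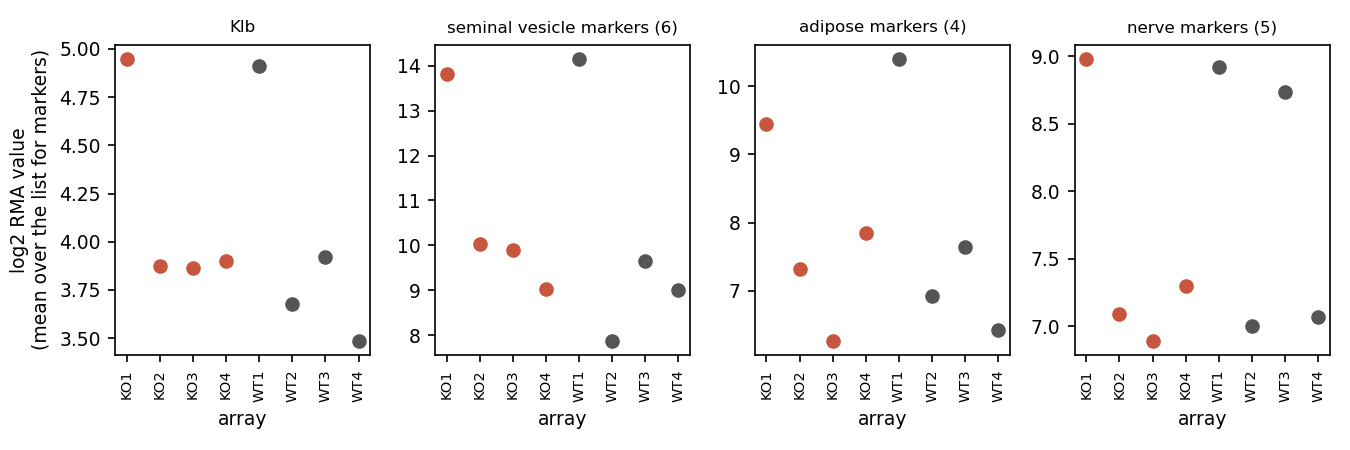
Log2 RMA value of *Klb* and mean log2 value of the measured seminal vesicle, adipose and nerve markers (y axis) on knockout (KO) and wild-type (WT) arrays 1 to 4 (x axis), with knockout in red and wild type in grey. Knockout array 1 and wild-type array 1 are the highest in every panel, and wild-type array 3 is close to them for nerve markers.

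*Fgfbp1* encodes a secreted carrier that releases FGFs from heparan sulfate. Its log2 values were 9.05, 8.05, 8.61 and 8.63 on knockout arrays 1 to 4 and 8.30, 8.23, 8.38 and 7.96 on wild-type arrays 1 to 4. Of the knockout arrays, 3 lay above every wild-type array and knockout array 2 lay among them. The means differed by 0.37 on the log2 scale (SE 0.21, 95% confidence interval -0.12 to 0.85, adjusted p = 0.512). The difference was 0.19 without knockout array 1 and 0.59 without knockout array 2 (limma unadjusted p = 0.00158, adjusted p = 0.287). Knockout array 2 was singled out after the values had been seen, so this p describes and does not test. *Fgfbp1* is known from squamous and basal epithelium, and knockout arrays 1, 3 and 4, with the highest *Fgfbp1*, also had the highest means of the 8 basal markers (10.50, 10.36 and 10.54, against 10.17 on knockout array 2). The part of the basal markers was not tested.

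Of the 26 probe sets of the feedback genes, 3 had an unadjusted p under 0.05 (11.5%, against 12.8% of all probe sets). At their brightest probe sets, 7 of the 8 genes were higher on average in knockout prostate, and the median log2 fold change was 0.076. The number stayed at 7 after quantile normalization and median centring, and it was 6 without knockout array 1 and wild-type array 1 (median 0.18). None of their probe sets passed an adjusted p under 0.05.

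*Spry4*, a Sprouty inhibitor of RAS and ERK activation, was the one gene of the module with an unadjusted p under 0.05 at its brightest probe set, which is 1 of 36 (2.78%) against 14.8% of all genes. Its log2 values were 7.00, 6.84, 6.82 and 6.57 on knockout arrays 1 to 4 and 6.58, 6.36, 6.13 and 6.47 on wild-type arrays 1 to 4. The groups all but separated, since knockout array 4 lay just under wild-type array 1. The log2 fold change was 0.42, a fold change of 1.34 (SE 0.13, 95% confidence interval 0.12 to 0.72, unadjusted p = 0.0128, limma adjusted p = 0.284), and the exact permutation test gave p = 0.0571 (2-sided). It was 0.17 on array day 1 and 0.67 on array day 2. Without knockout array 1 and wild-type array 1 it was 0.41. Other probe sets of *Spry4* had 0.053, -0.017 and 0.29, the last of these (unadjusted p = 0.0578) under the reference level.

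*Spred1*, whose product recruits neurofibromin to restrain RAS, was covered by 8 probe sets. The brightest had log2 values of 10.50, 10.87, 10.82 and 10.86 on the knockout arrays and of 10.55, 10.59, 10.59 and 10.65 on the wild-type arrays. Knockout array 1 was the lowest of all 8 and the other knockout arrays were the highest 3. The resulting log2 fold change was 0.17 (SE 0.093, adjusted p = 0.509). It was 0.25 without knockout array 1 (limma unadjusted p = 0.00671, adjusted p = 0.241) and 0.11 without knockout array 2 (unadjusted p = 0.291, adjusted p = 0.729). Both fits were singled out after the values had been seen, so their p-values describe and do not test.

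A dim probe set of *Spred1* had the smallest p of the module. Its log2 values were 5.21, 5.57, 5.06 and 5.15 on the knockout arrays and 4.35, 4.40, 4.91 and 4.76 on the wild-type arrays, with every knockout array above every wild-type array. Its log2 fold change was 0.64, or 1.56-fold (SE 0.15, 95% confidence interval 0.29 to 0.99, unadjusted p = 0.00325, adjusted p = 0.216), with 0.55 and 0.73 on array days 1 and 2. The exact permutation test gave p = 0.0286 (2-sided), the smallest p that 4 arrays against 4 allow when array day is left out. The suffix of its name (x_at) marks a set whose probes can bind other transcripts, and its mean of 4.93 lies little above the reference level. A probe set that the annotation ties to the same source sequence had a log2 fold change of 0.20 (adjusted p = 0.544).

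The other separated probe set was also one of *Spred1*, with log2 values of 9.58, 9.60, 9.64 and 9.69 on the knockout arrays and of 9.43, 9.52, 9.53 and 9.27 on the wild-type arrays. Here the log2 fold change was 0.19, a fold change of 1.14 (SE 0.078, 95% confidence interval 0.0054 to 0.37, unadjusted p = 0.0450, adjusted p = 0.379), with 0.31 and 0.060 on array days 1 and 2. The remaining *Spred1* probe sets had log2 fold changes of 0.066, 0.028, -0.026 and -0.21. The direction thus differed between probe sets of this gene. *Spred2*, its paralog, had 0.051 at its brightest probe set and between -0.14 and 0.15 at the others.

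**Figure D4:**
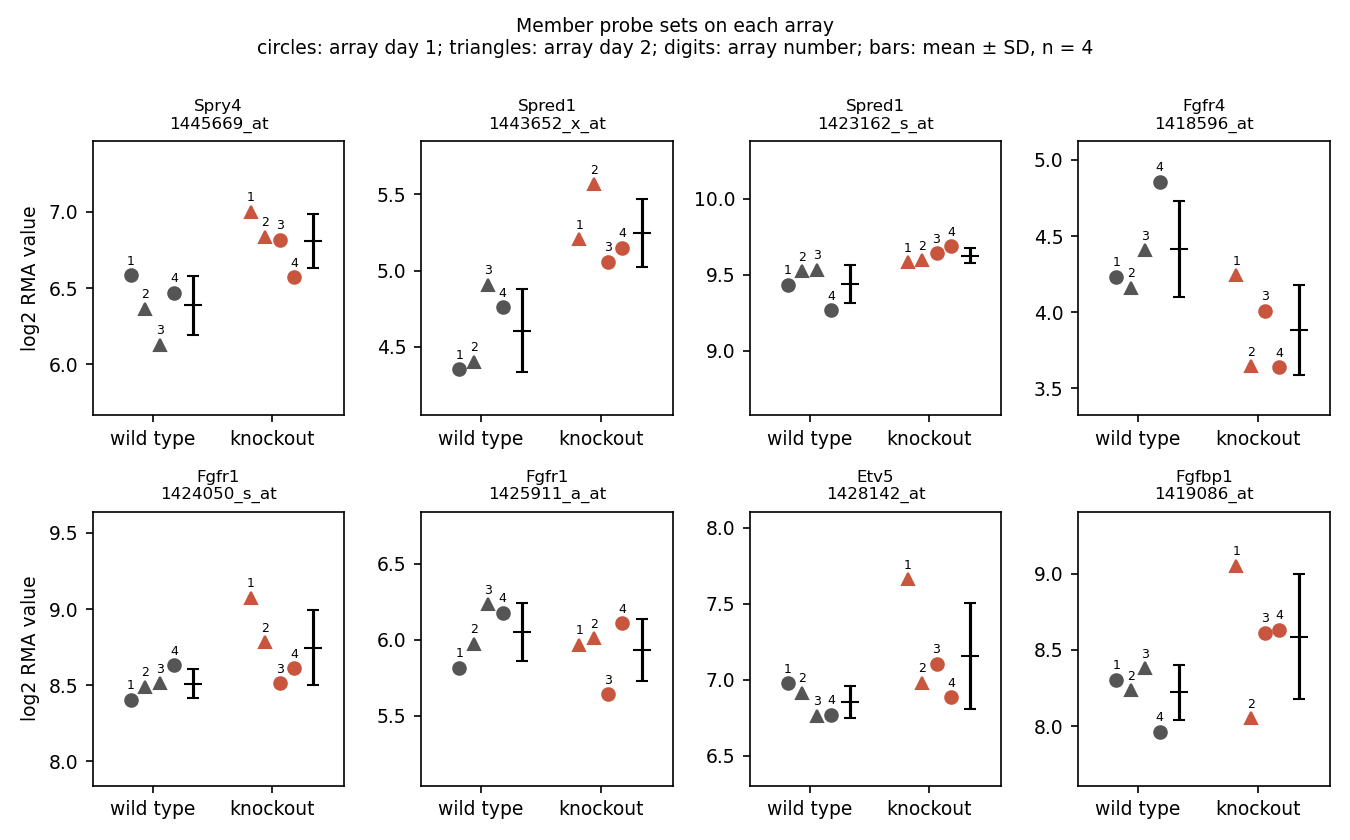
Log2 RMA value (y axis) of 8 probe sets of *Spry4*, *Spred1*, *Fgfr4*, *Fgfr1*, *Etv5* and *Fgfbp1* on each of 4 wild-type and 4 knockout arrays (x axis), with bars for the mean and SD of a group. The groups are separated for both *Spred1* probe sets, by a narrow gap in the second of them (9.58 to 9.69 against 9.27 to 9.53), and overlap for the others.

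*Spry1* and *Spry2* encode the other Sprouty inhibitors of the module. *Spry1* had log2 values of 7.55, 8.74, 8.45 and 8.21 on knockout arrays 1 to 4 and of 8.18, 8.13, 8.15 and 8.15 on wild-type arrays 1 to 4. The wild-type arrays were almost identical, whereas knockout array 1 lay below and the other knockout arrays above all of them. Averaged over arrays the difference was 0.082 (SE 0.23, 95% confidence interval -0.46 to 0.62, adjusted p = 0.916). It was 0.34 without knockout array 1 (limma unadjusted p = 0.0234, adjusted p = 0.310) and 0.39 without both arrays numbered 1 (unadjusted p = 0.0249, adjusted p = 0.317). Without knockout array 2 it was -0.14, so that single arrays set its size and its sign. Knockout array 1 departs from its group for this gene, so the p-values without it describe and do not test. *Spry2* had log2 values of 10.26, 10.45, 10.49 and 10.30 on the knockout arrays and of 10.28, 10.44, 10.27 and 10.23 on the wild-type arrays. Here the difference was 0.071 (SE 0.083, 95% confidence interval -0.12 to 0.26, adjusted p = 0.767).

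*Dusp6*, the ERK phosphatase gene, had log2 values of 7.91, 8.28, 8.27 and 8.35 on the knockout arrays and of 8.27, 8.29, 8.18 and 8.01 on the wild-type arrays. The groups overlapped fully, and differed by 0.018 on the log2 scale (SE 0.12, 95% confidence interval -0.25 to 0.29, adjusted p = 0.968), 0.17 on array day 1 and -0.14 on day 2. *Etv5* had log2 values of 7.66, 6.98, 7.11 and 6.89 on the knockout arrays and of 6.98, 6.91, 6.76 and 6.77 on the wild-type arrays. Knockout array 1 stood well above the rest. The means differed by 0.30 (SE 0.16, 95% confidence interval -0.078 to 0.68, adjusted p = 0.493), and 0.13 without knockout array 1. Other probe sets of *Etv5* had 0.15 and 0.20, the last of these (limma unadjusted p = 0.0732) under the reference level. *Etv4* had the lowest log2 fold change of the 36 genes, -0.29 (SE 0.20, limma adjusted p = 0.595), with 0.17 on array day 1 and -0.74 on day 2. Its log2 values on knockout arrays 1 and 2 (4.51 and 4.65) were close to the reference level. A second probe set of *Etv4*, under that level, had 0.056. On knockout array 3, 8 of 8 feedback genes lay above their own mean over the 8 arrays, and on knockout arrays 1, 2 and 4 this held for 3, 6 and 4 of 8. On the wild-type arrays, 2 or 3 of 8 lay above. These counts follow in part from the higher knockout means of most feedback genes, and were not made for all genes. On knockout array 1, *Etv5* and *Spry4* were above that mean by 0.65 and 0.41, while *Spry1*, *Etv4* and *Dusp6* had differences from it of -0.65, -0.63 and -0.28. On knockout array 3, *Spred2* was above it by only 0.0017. Skeletal muscle markers (9.39) and the 9 ERK response genes described below (8.90) also had their highest means of the 8 arrays on knockout array 3. Their part in these counts was not tested.

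**Figure D5:**
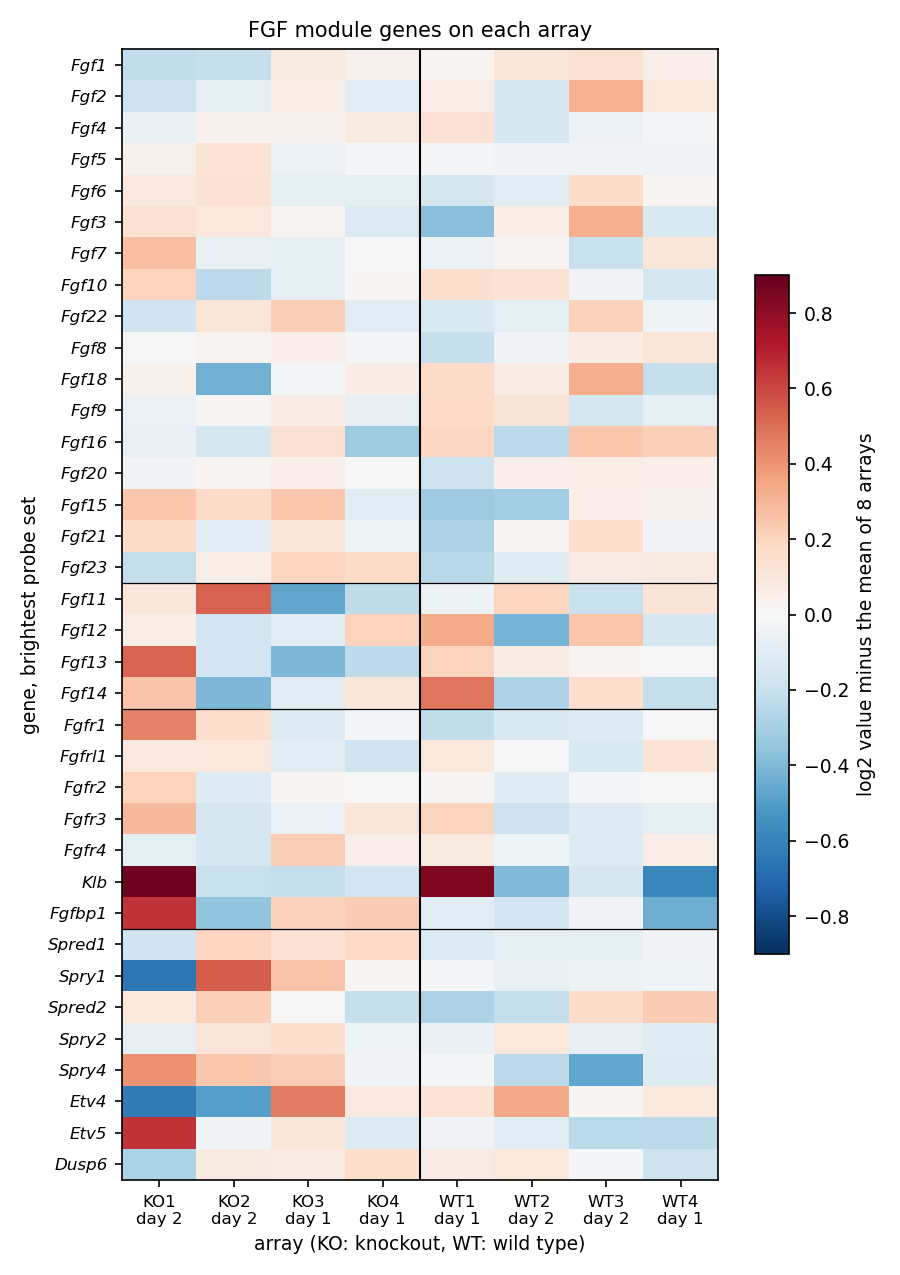
Log2 value minus the gene's mean over 8 arrays (colour) for the 36 genes of the FGF module (rows, brightest probe set) on each array (columns, with array day), in the order secreted ligands, intracellular factors, receptors with co-receptor and carrier, and feedback genes. The deepest colours fall on knockout array 1, red for *Klb*, *Etv5* and *Fgfbp1* and blue for *Spry1* and *Etv4*, and on wild-type array 1 for *Klb*.

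Single arrays stood out for many genes. Knockout array 1 held the highest or the lowest value of 19 of the 36 genes (52.8%), against 39.7% of all genes, and it was the highest for 12. Wild-type array 1 did so for 13 (36.1%, against 27.2% of all genes). Of the 23 genes with several probe sets, 13 had log2 fold changes of both signs among them. Some of these signs rest on very small values, such as -0.0025 at a dim probe set of *Spry2*. The share over all genes was not computed. *Fgf9*, *Fgf14* and *Spry2* lie on chromosome 14, as *Olfm4* does, and had log2 fold changes of -0.027, -0.069 and 0.071.

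Other genes of the pathway were described by lists of transducers, modulators, ERK response genes, heparan sulfate genes and prostate regulators. At their brightest probe sets none of 63 measured genes passed (0 called by limma, where 0.17% of all genes were), and 4 were higher and 4 lower at an unadjusted p under 0.05 (14.8% of all genes in both directions). The groups did not overlap for 9 (14.3%), against 10.8% of all genes. Of 13 adaptors and kinases between receptor and ERK, 2 were lower at an unadjusted p under 0.05, namely *Araf* (-0.27, adjusted p = 0.275), a RAF kinase gene, and *Map2k2* (-0.15, adjusted p = 0.349), a MEK kinase gene. Another probe set of *Araf* had 0.52 (adjusted p = 0.226), so its probe sets disagreed. The list had a median of -0.024, where that of all genes was -0.015. Of 14 other inhibitors and modulators, none had an unadjusted p under 0.05, and the smallest p was that of *Nf1*, the neurofibromin gene (0.20, unadjusted p = 0.0978, adjusted p = 0.484). Of 9 further genes listed for the response to ERK, 8 were lower on average and 1 higher, where 46.2% of all genes were higher. Their median was -0.071, and none passed. Among the 8, *Elk1*, *Fosl1* and *Elk3* differed little (-0.0011, -0.0090 and -0.033). The lowest p was that of *Ier3* (-0.32, unadjusted p = 0.0509, adjusted p = 0.392), and *Egr1* had a log2 fold change of -0.48 (95% confidence interval -1.29 to 0.34).

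Heparan sulfate proteoglycans hold FGFs at the cell surface and present them to their receptors. Of 19 measured core protein and enzyme genes, 14 were higher on average (median 0.050), where 46.2% of all genes were. An unadjusted p under 0.05 was found for 3 of the 19, all higher, where 14.8% of all genes had one in either direction. *Sdc2*, which encodes syndecan 2, had log2 values of 11.39, 11.59, 11.74 and 11.74 on the knockout arrays and of 11.21, 11.12, 10.97 and 11.14 on the wild-type arrays, without overlap. At the brightest probe set this was a log2 fold change of 0.51 (SE 0.075, adjusted p = 0.0852), and another of its probe sets passed (1.67, adjusted p = 0.0183). *Sulf1*, a sulfatase gene that trims heparan sulfate, had 0.29 (adjusted p = 0.258) and *Sdc3* 0.25 (adjusted p = 0.365). Among 8 prostate regulators that act beside FGFs, *Bmp7*, a bone morphogenetic protein gene, had log2 values of 10.99, 10.90, 11.07 and 11.20 on the knockout arrays and of 11.65, 11.75, 11.51 and 11.56 on the wild-type arrays, without overlap. The difference was -0.58 (SE 0.086, adjusted p = 0.0919). In the same list *Shh*, the hedgehog ligand gene, had 0.61 (limma unadjusted p = 0.00366, adjusted p = 0.221). *Sox9*, a transcription factor gene, had -0.67 (limma unadjusted p = 0.0185, adjusted p = 0.303). The groups did not overlap for either gene, by a very narrow gap for *Sox9*. *Sdc2* and *Bmp7* passed in limma with an intensity trend and robust variance (adjusted p = 0.0327 and 0.0380).

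Array day was tested in the same way. Between the days 0 of 83 member probe sets passed an adjusted p under 0.05 in limma, as did 0% of all probe sets, and 4 (4.82%) had an unadjusted p under 0.05, against 4.62% of all. They belonged to *Fgf13* (day 2 minus day 1, -0.22 on the log2 scale at a dim probe set), *Fgfr4* (-0.20 at its brightest probe set), *Fgf3* (0.30) and *Fgf12* (-0.50 at a dim probe set), each with an adjusted p of 0.95.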

How the data were processed

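RNA from whole prostate was hybridised to genome-wide Affymetrix mouse arrays, 1 array per mouse. The deposited values are log2 intensities made by the authors with RMA, an algorithm of background subtraction, quantile normalization and summary per probe set (version not given in the sources used here). Labels name Trizol for RNA extraction and the methods an RNeasy kit, and the methods give more mice per genotype than the labels. A figure legend of the study gives 4 mice or fewer per genotype for its array comparisons. Genotype and array number came from the sample titles, array day from the day in the titles. Control probe sets (64) were left out. Of 45037 probe sets, 34945 had 1 gene symbol, 932 several and 9160 none; all 36 member symbols matched the RefSeq table of GRCm38.p6, used for names and chromosomes only. One further ligand gene is not reported here. Each gene was read from its brightest probe set, by the mean of the 8 arrays. R 4.3.3 with limma 3.58.1 (lmFit, eBayes, 2-sided) tested genotype with array day as a term, with Benjamini-Hochberg adjustment over all probe sets. The fit was tested on simulated data. Exact permutation tests compared 4 with 4 arrays and did not take array day into account. The number of arrays limits the precision.

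Members and lists were chosen with earlier results of these data known, so lists carry no test. Given in full were *Olfm4*, every member probe set at an unadjusted p under 0.05, every member gene whose groups did not overlap (none), and *Fgf2*, *Fgf7*, *Fgf10*, *Fgfr1*, *Fgfr2*, *Fgfr3*, *Spry1*, *Spry2*, *Dusp6* and *Etv5*. Of each pathway list, up to 3 genes with the smallest p were named. Array values of *Fgf1*, *Fgf13*, *Fgf15*, *Klb*, *Fgfbp1*, *Etv4*, the brightest *Spred1* probe set, *Sdc2* and *Bmp7*, and the value of *Egr1*, were given after they had been seen. The alternatives were the fit without array day, a replicate block, analysis of variance without array day, trend and robust variance, array weights, quantile normalization, median centring, filters at a mean log2 value of 5 and 7, each array day alone, the mean of a gene's probe sets, and leaving out each array, or knockout array 1 with wild-type array 1.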

Additional observations from a re-analysis of the deposited data

Results flagged for a closer look

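Of 80 groups of 4 arrays tested for a value far from the other 3 by Dixon's ratio, 5 were picked out, and chance picks out about 1 group in 20. *Klb* had a log2 value of 4.95 on knockout array 1, against 3.86 to 3.90 on the other knockout arrays. Seminal vesicle, adipose and nerve markers were also the highest of the knockout arrays there, and their part was not tested. *Spred1* at its brightest probe set had 10.50 on knockout array 1, against 10.82 to 10.87 on the others. *Fgfr2* had 11.71 on wild-type array 2, against 11.81 to 11.82. *Fgf20* had 5.41 on wild-type array 1, against 5.64 to 5.65, and *Fgf16* had 3.60 on wild-type array 2, against 4.02 to 4.08, near background.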

How the results depend on the processing

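The count of 0 member probe sets called held in all 20 alternatives that gave one, in limma and in analysis of variance. The number at an unadjusted p under 0.05, 4 in the reported fit, was 9 after median centring, 8 on array day 2 alone (9.64%, against 9.99% of all probe sets), 6 on array day 1 alone (7.23%, against 5.88%), 7 without knockout array 1 and wild-type array 1, 2 of 51 and 1 of 22 members with mean log2 values of at least 5 and 7 (16.3% and 20.8% of all), and 4 to 8 with 1 array left out (8 without knockout array 1 or 3). The members' share exceeded that of all probe sets in 1 of 20 alternatives, array day 1 alone. Counting higher members only it did so in 11 of 20, and counting lower members only in 1 of 20. These alternatives reuse the same arrays, and some excesses were small, such as 4.82% against 4.52% without knockout array 2. In the reported fit the share of higher members was 3.61%, against 5.46% of all probe sets. The median over member genes, 0.037, ran from 0.017 to 0.066 over the alternatives and from 0.018 to 0.056 with 1 array left out. All called probe sets, 50 in the reported fit, were 20 with the replicate block, 24 in analysis of variance, 4 on either array day alone, 51 to 73 in the other fits to all arrays (73 with trend and robust variance, 71 without array day), 37 without knockout array 1 and wild-type array 1, and 17 (without wild-type array 2) to 43 (without knockout array 1) with 1 array left out. Pathway list genes called were 2 with trend and robust variance (*Sdc2* and *Bmp7*) and 1 at a mean log2 value of at least 7 (*Sdc2*).

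*Spry4* kept its sign in all 20 alternatives that gave a value and had an unadjusted p under 0.05 in 18. The exceptions were array day 1 alone (limma unadjusted p of 0.256, adjusted p = 0.852) and the mean of its probe sets (limma unadjusted p of 0.0519, adjusted p = 0.379). The dim *Spred1* probe set had one in 18 of 18, with limma adjusted p from 0.149 to 0.839; like that of *Fgfr4* it was too dim for the filters. The brighter separated *Spred1* probe set had one in 10 of 20 (limma unadjusted p of 0.568 on array day 2 alone, adjusted p = 0.844), and the *Fgfr4* probe set in 13 of 18. On array days 1 and 2 alone, 10 and 13 of the 36 genes turned sign, *Etv4* (0.17 on day 1) among them. Among the 14 genes followed through all alternatives, signs turned on array day 1 alone for *Fgf7* (-0.070), *Fgfr3* (-0.031) and *Fgf1* (0.030), on array day 2 alone for *Dusp6* (-0.14), and without both arrays numbered 1 for *Fgf7* (-0.067) and *Fgfr2* (-0.026). With 1 array left out, *Fgf7* ran from -0.035 to 0.12, *Fgfr2* from -0.020 to 0.11, *Fgfr3* from -0.017 to 0.18, *Fgf10* from -0.13 to 0.044, *Dusp6* from -0.066 to 0.12 and *Spry1* from -0.14 to 0.34; the cause was not tested. The labels tie the replicate numbers to no shared litter or batch, and deviations of arrays numbered 1 to 4 correlated between genotypes at 0.34, 0.17, 0.043 and -0.0056, so the numbers were not taken as pairs. With the replicate block, 5 member probe sets had an unadjusted p under 0.05, and *Spry4* had an unadjusted p of 0.00931 (adjusted p = 0.287).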
